A study of Rattus norvegicus with 8 samples.

Results

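Integrins are adhesion receptors made of 1 alpha and 1 beta chain. In these data 10 such chains were compared in 2 sets: leukocyte chains (Itgb2, Itgal, Itgam, Itga4 and Itgb7) and chains found on many adherent cells (Itgb1, Itga1, Itga5, Itgav and Itgb5). Members were all non-control probes whose RefSeq transcript maps to 1 of the 10 symbols. This gave 12 of the 41012 non-control probes on the array, 5 for the leukocyte chains and 7 for the others, and covered 9 of the 10 genes, out of 13854 genes with a named probe. No probe matched Itgav, the alpha chain of the vitronectin receptors, so its level was not analysed here.

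The samples are mesenchymal stem cells from adipose tissue (ATSC), grown out of collagenase-digested subcutaneous fat; the fat came from Sprague-Dawley rats, all male. The 3 IRI samples are ATSC on liver after ischemia-reperfusion injury, in which blood flow is interrupted and restored, the 4 non-IRI samples are ATSC on liver without that injury, and the 1 in vitro sample is ATSC in culture. All 3 groups share the strain, the donor sex, the fat depot and the culture medium with serum. Animal age, time on the liver, how the cells were placed there and recovered, and any sorting step are not given in the sources used here. The labels number the replicates without tying them to animals, so the p-values measure the spread between these arrays, which may be technical, and the single culture array is taken to vary as the liver arrays do.

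The beta 2 chain, encoded by Itgb2, is largely restricted to leukocytes. It pairs with the Itgal product on lymphocytes and other leukocytes and with the Itgam product on myeloid cells, and both receptors bind intercellular adhesion molecules on endothelium. The Itga4 product pairs with the Itgb1 or the Itgb7 product and binds Vcam1 or Madcam1. The Itgb1 product is the most widely shared beta chain and forms collagen receptors with the Itga1 product and the main fibronectin receptor with the Itga5 product, while the Itgb5 product joins the Itgav product in a vitronectin receptor. Talin and kindlin proteins bind beta chain tails and switch the receptors on. In blood cells the kindlin is the Fermt3 product.

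Levels are log2 signals relative to the 75th percentile of the same array. Between 53.5% and 59.7% of spots were well above background, and that percentile lay between 156 and 291 intensity units. All 12 member probes passed the filter on dim probes. IRI and in vitro arrays were on 1 slide and the non-IRI arrays on another, so injury and slide cannot be told apart, while IRI against in vitro lies within a slide. Stromal markers fixed for this check were present on every array: all 8 (Pdgfra, Pdgfrb, Thy1, Eng, Nt5e, Lum, Dcn and Cd44) were well above background on all 8 arrays. Which cells gave that signal on liver was not tested. With the mean of both liver groups set against culture, 1 of the 8 rose and 1 fell (limma adjusted p under 0.05). Over all probes that passed the filter, 15.3% rose and 17.7% fell. The mean log2 level of that list was 3.20 to 3.48 in IRI, 3.05 to 3.66 in non-IRI and 3.26 in vitro. Markers of leukocytes were also present on every liver array, as given below.

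The RefSeq promoter windows of 4 chains are printed because 3 of them belong to leukocyte chains that rose together on liver and 1 to the chain that fell. Each runs from 250 bases before to 50 bases after the start that the RefSeq promoter table uses, in assembly GRCr8 and on the strand of the gene. For Itgb1 that start is the 5′ end of the gene span given below, whereas for Itgam, Itga4 and Itgb7 it lies inside the span. Capitals mark the letters GAGGAA, the core of sites bound by the myeloid and B cell factor PU.1, or TTCCTC where the match is on the opposite strand. The windows are Itgam at chr1:192089342-192089641 (plus strand), Itga4 at chr3:84569765-84570064 (plus), Itgb7 at chr7:135239022-135239321 (minus) and Itgb1 at chr19:73602027-73602326 (plus).
Itgam: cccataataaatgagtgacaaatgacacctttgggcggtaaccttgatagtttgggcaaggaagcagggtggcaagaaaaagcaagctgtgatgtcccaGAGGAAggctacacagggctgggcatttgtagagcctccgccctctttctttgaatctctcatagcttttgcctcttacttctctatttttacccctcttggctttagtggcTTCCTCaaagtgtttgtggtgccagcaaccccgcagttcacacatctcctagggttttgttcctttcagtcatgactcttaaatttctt
Itga4: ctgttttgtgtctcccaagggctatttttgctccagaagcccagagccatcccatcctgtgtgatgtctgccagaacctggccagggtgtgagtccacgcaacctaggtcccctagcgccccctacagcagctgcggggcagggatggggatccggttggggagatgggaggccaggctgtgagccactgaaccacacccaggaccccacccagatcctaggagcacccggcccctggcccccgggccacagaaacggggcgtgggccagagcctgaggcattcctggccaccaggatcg
Itgb7: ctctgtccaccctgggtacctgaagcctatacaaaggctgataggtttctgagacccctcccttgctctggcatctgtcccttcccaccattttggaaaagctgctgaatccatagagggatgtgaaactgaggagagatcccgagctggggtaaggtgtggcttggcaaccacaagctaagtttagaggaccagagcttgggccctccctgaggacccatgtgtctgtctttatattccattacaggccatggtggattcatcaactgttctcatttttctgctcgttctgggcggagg
Itgb1: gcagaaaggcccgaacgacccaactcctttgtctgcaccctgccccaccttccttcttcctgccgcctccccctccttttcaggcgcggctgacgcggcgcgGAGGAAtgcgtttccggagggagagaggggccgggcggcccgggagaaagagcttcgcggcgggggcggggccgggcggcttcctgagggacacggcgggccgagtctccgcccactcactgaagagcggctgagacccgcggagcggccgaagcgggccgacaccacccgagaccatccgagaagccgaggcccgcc
The Itgam window holds 2 matches, whose first bases lie 151 bases before the start on the gene's strand and 39 bases before it on the opposite strand. The Itgb1 window holds 1, at 148 bases before the start, and the Itga4 and Itgb7 windows hold none. Of the 8 members with a window in the table, 4 hold a match (Itgam, Itgb1, Itga5 and Itgav), against 27.6% of all 33469 windows of that length. The 4 printed windows differ in base composition: GC made up 46.3% of the letters for Itgam, 51.7% for Itgb7, 64.7% for Itga4 and 71.7% for Itgb1, against a median of 51.7% over all windows. A match of letters is a description and says nothing of binding, and Itgb2 and Itgal have no window printed.

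All 5 leukocyte chains were higher in ATSC on liver than in cultured ATSC, whereas no probe of the other chains was. With the mean of both liver groups set against culture, 5 of 5 leukocyte probes rose at an adjusted p under 0.05 (limma, Benjamini-Hochberg over all kept probes), where 15.3% of all kept probes rose. Only Itgb7 was well above background in culture. Itgb2, Itgal, Itgam and Itga4 were kept through the liver arrays alone, so counts of rises here are not read against the shares of all kept probes. Of the 7 probes of the other chains, none rose and 2 fell, both of Itgb1, where 17.7% of all kept probes fell. At an unadjusted p under 0.05 there were 0 higher and 3 lower, the third being Itga1, where 26.1% of all kept probes were lower. Each liver group set alone against the same culture array gave 5 rises among leukocyte probes and 2 falls among the others; over all kept probes 13.5% rose and 14.5% fell for IRI, and 16% rose and 17.7% fell for non-IRI. All 5 leukocyte probes were above culture on every liver array, as were 23.9% of probes compared. The median log2 difference over the leukocyte chains was 5.05, or 4.02 with the chains that were dim in culture held at their bounds. It was -0.81 over the 4 other genes measured and -0.25 over all kept probes. In bulk RNA, a change in the number of cells of a type and a change in RNA per cell cannot be told apart.

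Itgb2 (RefSeq NM_001037780, probe A_42_P591344) lies on chromosome 20 at 11061009 to 11097242 in GRCr8. Its log2 level was 4.01, 4.21 and 4.39 in IRI, 4.12, 3.53, 4.31 and 3.53 in non-IRI, and -6.50 in vitro, where it was not well above background. Every liver array lay far above the culture array, and the 2 liver groups overlapped. The mean of the 7 liver arrays was at least 354-fold higher than culture (limma adjusted p = 1.1e-06), at least 403-fold for IRI and at least 321-fold for non-IRI. A fold written as "at least" sets the mean of the bright group against the lowest signal that counted as well above background on the dim array. For liver it uses the mean over all 7 liver arrays, whereas the adjusted p beside it belongs to the mean of the 2 group means. Such a fold is a bound on the scale of the scanner's processed signal alone. With normexp background correction (offset 50), the log2 difference of liver minus culture was 5.53 for Itgb2, below its bound on the log2 scale.

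Itgam (NM_012711, A_43_P15993; chromosome 1 at 192089496 to 192139947), the alpha chain of the complement receptor on macrophages and neutrophils, behaved alike. Its level was 2.82, 1.56 and 1.78 in IRI, 1.46, 0.60, 1.90 and 0.46 in non-IRI, and -6.61 in vitro, again not well above background. IRI 1 was the highest array and non-IRI 2 and 4 the lowest liver arrays. The liver mean was at least 62.4-fold higher than culture (limma adjusted p = 6e-05). Itgal (NM_001033998, A_44_P452222; chromosome 1 at 191348424 to 191386228), the alpha chain that lymphocytes use to bind intercellular adhesion molecules, rose as well. It measured -1.07, -1.20 and -0.67 in IRI, -1.83, -3.06, -1.61 and -2.44 in non-IRI, and -6.40 in vitro (not well above background). All liver arrays exceeded culture, and all 3 IRI arrays exceeded all 4 non-IRI arrays. The liver mean was at least 6.75-fold higher than culture (limma adjusted p = 0.00033).

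The chains that pair around Itga4 showed the same direction. Itga4 itself (NM_001107737, A_43_P19669; chromosome 3 at 84569487 to 84646276) measured -0.73, -1.27 and -1.50 in IRI, -1.36, -2.92, -1.59 and -1.67 in non-IRI, and -6.58 in vitro, where it was not well above background. Its liver mean was at least 7.34-fold higher than culture (limma adjusted p = 0.00041), and non-IRI 2 was the lowest of the liver arrays. With normexp background correction in place of the scanner's, the log2 difference was 3.34 for Itgam and 1.13 for Itgal, that of Itga4 was smaller still, and each lay below its bound. There Itgal and Itga4 did not pass (limma adjusted p = 0.442 and 0.457), nor did either Itgb1 probe below (0.182 and 0.285). Itgb7 (NM_013171, A_44_P482519; chromosome 7 at 135225962 to 135243522), the beta chain of gut-homing lymphocytes, was the only leukocyte chain well above background in culture. It measured 2.54, 2.61 and 2.64 in IRI, 2.41, 1.44, 2.89 and 1.28 in non-IRI, and -1.72 in vitro. Its liver mean was 16.2-fold higher than culture (log2 difference 4.02, SE 0.55, limma adjusted p = 0.0014). The IRI arrays lay close together (SD 0.05, n = 3) and the non-IRI arrays spread widely around them (SD 0.78, n = 4).

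**Figure D1:**
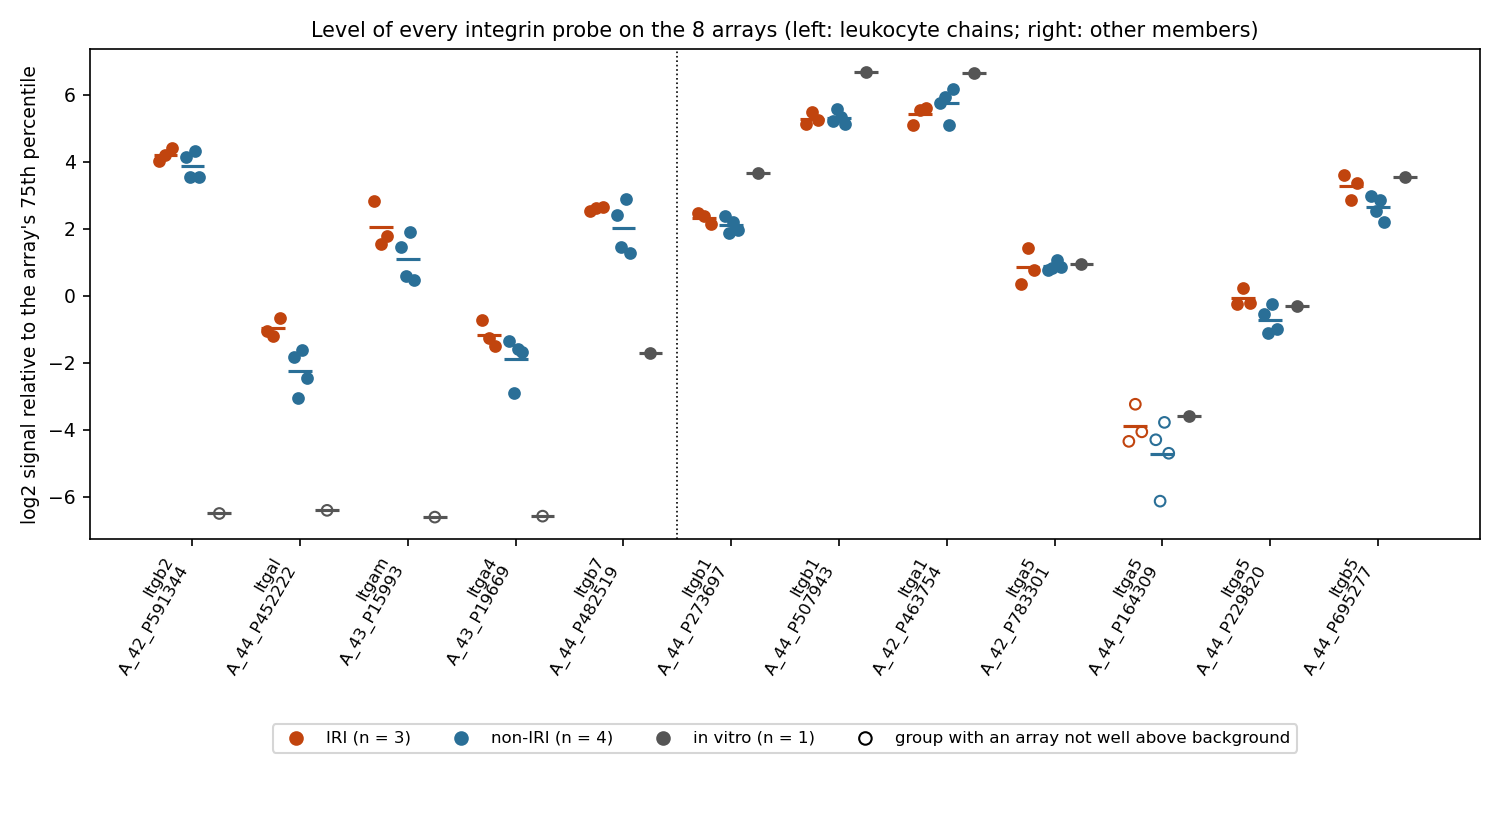
Log2 signal of each of the 12 integrin probes relative to the array's 75th percentile (y axis), with 1 point per array, groups side by side in the order IRI, non-IRI and in vitro, and short lines at group means; open points mark groups with at least 1 array not well above background. The 5 leukocyte chains left of the dotted line drop in culture (Itgb2 to -6.50), while both Itgb1 probes are highest there (3.66 and 6.69); heights of different probes are not comparable.

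Itgb1 (NM_017022; chromosome 19 at 73602277 to 73650271) was measured by 2 probes, and both were lower on liver than in culture. Probe A_44_P273697, printed as 10 spots per array, measured 2.47, 2.39 and 2.13 in IRI, 2.37, 1.88, 2.20 and 1.96 in non-IRI, and 3.66 in vitro. The SD over its 10 spots was 0.044 to 0.093 within an array, below the SD of 0.18 between IRI arrays (n = 3) and of 0.22 between non-IRI arrays (n = 4). Probe A_44_P507943 measured 5.11, 5.46 and 5.23 in IRI, 5.20, 5.57, 5.33 and 5.12 in non-IRI, and 6.69 in vitro. On both probes the culture array stood above every liver array, and the liver groups overlapped. The log2 differences of liver minus culture were -1.44 (SE 0.26, limma adjusted p = 0.0048) and -1.40 (SE 0.25, adjusted p = 0.0046), so liver was 2.72-fold and 2.64-fold lower. For IRI alone against culture, the first probe's adjusted p of 0.011 became 0.0651 with replicate number as a block. That block groups the culture array, numbered 1, with IRI 1 and non-IRI 1 by its number alone.

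Itga1 (NM_030994, A_42_P463754; chromosome 2 at 48379181 to 48545336), the collagen-binding partner of Itgb1, measured 5.09, 5.54 and 5.59 in IRI, 5.75, 5.93, 5.08 and 6.18 in non-IRI, and 6.63 in vitro. Culture was again above all 7 liver arrays, as it was for 40.6% of all probes compared in this way. The difference of liver minus culture was -1.06 (95% confidence interval -1.96 to -0.16) and missed the threshold (limma adjusted p = 0.071). Without non-IRI 3 its adjusted p was 0.0432. Itgb5 (NM_147139, A_44_P695277; chromosome 11 at 80333588 to 80449373) measured 3.58, 2.86 and 3.37 in IRI, 2.97, 2.53, 2.87 and 2.20 in non-IRI, and 3.53 in vitro. Its culture value lay within the IRI range and above the non-IRI range, and the difference of liver minus culture was -0.57 (95% confidence interval -1.40 to 0.26).

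Itga5 (NM_001108118; chromosome 7 at 136358097 to 136381305), which completes the fibronectin receptor, was read by 3 probes. Probe A_42_P783301 measured 0.35, 1.41 and 0.76 in IRI, 0.77, 0.82, 1.06 and 0.85 in non-IRI, and 0.95 in vitro. Probe A_44_P229820 measured -0.23, 0.23 and -0.21 in IRI, -0.56, -1.10, -0.25 and -1.01 in non-IRI, and -0.31 in vitro. On both, culture lay inside the range of the liver arrays, and the difference from culture was -0.09 on each, with confidence intervals of -0.91 to 0.73 and -0.90 to 0.72. The third probe, A_44_P164309, was dim: it was well above background on 2 of 3 IRI arrays, 2 of 4 non-IRI arrays and the culture array, and measured -4.35, -3.24 and -4.06 in IRI, -4.30, -6.13, -3.78 and -4.70 in non-IRI, and -3.58 in vitro. Its difference from culture of -0.72 had a confidence interval of -2.48 to 1.03. The 3 probes disagreed on injury, as given next, so no single direction is reported for the gene.

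Between injured and uninjured liver, no member probe passed: 0 of 12 were called by limma, where 2.82% of all kept probes were. At an unadjusted p under 0.05 there were 3 of 12, namely Itgal, Itga5 probe A_44_P229820 and Itgb5, where 15.1% of all kept probes were. Itgal averaged -0.98 ± 0.27 in IRI (SD, n = 3) and -2.24 ± 0.65 in non-IRI (n = 4), a log2 difference of 1.26 (95% confidence interval 0.45 to 2.07, limma adjusted p = 0.14). With array weights in limma, Itgal passed at an adjusted p of 0.0368 with a difference of 1.15. Itgal and Itga5 probe A_44_P229820 were the 2 of 12 probes whose IRI arrays all lay above all non-IRI arrays, which held for 6.94% of probes compared.

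All 5 leukocyte chains had positive IRI minus non-IRI differences, with a median of 0.72, against 0.02 over all kept probes. The values were 0.33 for Itgb2 (95% confidence interval -0.23 to 0.89), 0.95 for Itgam (-0.06 to 1.96), 0.72 for Itga4 (-0.18 to 1.61) and 0.59 for Itgb7 (-0.31 to 1.49). Each of these intervals includes 0. Of the other probes, 4 of 7 were positive. The Itgb1 probes gave 0.23 (-0.20 to 0.65) and -0.04 (-0.44 to 0.37), Itga1 gave -0.33 (-0.97 to 0.32), and Itgb5 gave 0.63 (0.04 to 1.22, adjusted p = 0.30). The Itga5 probes gave -0.03, 0.85 and 0.66.

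**Figure D2:**
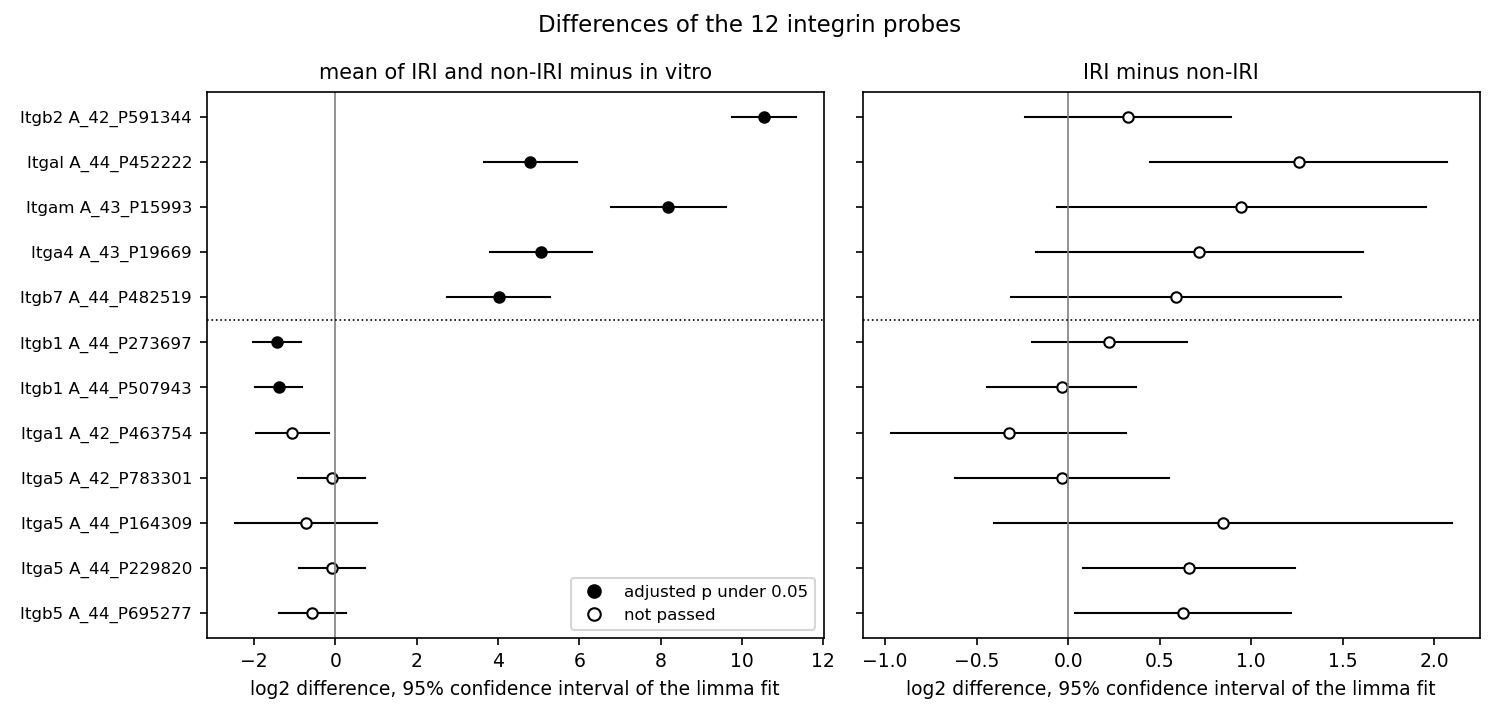
Log2 differences (x axes, with separate scales) of the 12 integrin probes, for the mean of IRI and non-IRI minus in vitro on the left and for IRI minus non-IRI on the right; points are limma estimates, bars 95% confidence intervals, and filled points passed an adjusted p under 0.05. The 5 leukocyte chains lie between 4.02 and 10.54 on the left, of which Itgb2, Itgal, Itgam and Itga4 rest on a culture signal not well above background, and no point is filled on the right.

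The 5 leukocyte chains shared their order over the liver arrays in part. Non-IRI 2 and non-IRI 4 were the 2 lowest of the 7 liver arrays for 5 of 5 leukocyte probes and for 4 of 7 other probes, as they were for 14.5% of 24751 kept probes; this pattern was picked after the values were seen. The mean log2 level over the leukocyte chains was 1.51, 1.18 and 1.33 in IRI, 0.96, -0.08, 1.18 and 0.23 in non-IRI, and -5.56 in vitro. The mean over the other 4 genes was 3.54, 3.82 and 3.74 in IRI, 3.67, 3.71, 3.59 and 3.59 in non-IRI, and 4.45 in vitro.

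Markers of leukocytes moved with the leukocyte chains. Of the pan-leukocyte list, 5 of 8 genes were kept, and all 5 were well above background on every liver array. On liver against culture 4 rose (limma), where 15.3% of all kept probes rose. Because 1 of the 5 was kept through the liver arrays alone, this count is not read against that share. The mean log2 level of the 5 genes was 3.90 to 4.24 in IRI, 3.52 to 4.08 in non-IRI and -1.96 in vitro. Their summed relative signal was 416 to 602 in IRI, 315 to 553 in non-IRI and 2.54 in vitro. Ptprc, the common leukocyte antigen, measured -1.05, -1.12 and -0.94 in IRI, -1.10, -1.74, -1.36 and -1.92 in non-IRI, and -6.08 in vitro, where it was not well above background. Its rise on liver was at least 8.79-fold (limma adjusted p = 2.6e-05). The part of leukocyte RNA in the integrin differences was not tested.

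Among macrophage markers, 6 of 7 kept genes rose on liver, with a mean level of 2.71 to 3.51 in IRI, 1.29 to 2.76 in non-IRI and -4.45 in vitro, and a summed relative signal of 190 to 250 in IRI, 139 to 228 in non-IRI and 4.21 in vitro. In culture Csf1r, Adgre1, Clec4f, Cd163 and Marco were not well above background, while Cd68 and Cd14 were. All 8 T and NK cell markers rose, with a mean of -0.58 to 0.24 in IRI, -0.81 to 0.27 in non-IRI and -5.70 in vitro, and a summed signal of 12.0 to 19.2, 9.84 to 21.7 and 0.243 in the same groups. Only 2 T and NK cell and 2 macrophage markers were well above background in culture, so neither count is read against all kept probes. Of 5 neutrophil markers on the array, 3 were kept (S100a8, S100a9 and Csf3r), all through the liver arrays alone, so their count on liver against culture is not read. Their mean was 0.74 to 1.80 in IRI, -2.56 to -0.01 in non-IRI and -6.59 in vitro, and their summed signal was 8.25 to 15.3 in IRI, 0.606 to 4.03 in non-IRI and 0.0313 in vitro. None of these 4 lists held a gene that passed in IRI against non-IRI (limma). At an unadjusted p under 0.05, 4 of 7 macrophage markers (Adgre1, Cd163, Clec4f and Marco) and 3 of 3 neutrophil markers were higher in IRI, where 6.37% of all kept probes were, and 0 pan-leukocyte and 0 T and NK cell markers were. Without non-IRI 3, 1 macrophage and 1 neutrophil gene passed, and without non-IRI 2, 1 neutrophil gene. With array weights 3 neutrophil and 2 macrophage genes passed, with a trended prior 2 and 1, and with the added normexp setting, in which bright background spots were set to the median, also 2 and 1.

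Markers of other cell types were also higher on liver than in culture. All 4 mesothelial markers on the array (Bnc1, Gpm6a, Msln and Wt1) rose on liver against culture (limma), and 2 with normexp. Over all kept probes 15.3% rose, but 1 of the 4 was kept through the liver arrays alone, so the count is not read against that share. The summed relative signal of the mesothelial markers was 48.2 to 64.8 in IRI, 54.1 to 87.7 in non-IRI and 2.56 in vitro. In IRI against non-IRI 1 of these 4 fell (limma), with a median log2 difference of -0.99, where 2.82% of all kept probes were called. That count was 0 to 1 in the fits that left out 1 array. At an unadjusted p under 0.05 Bnc1 and Gpm6a were lower in IRI, where 15.1% of all kept probes differed in either direction. Of 6 hepatocyte markers, 5 rose with the mean of both liver groups set against culture (limma), and 1 with normexp. Over all kept probes 15.3% rose. Set alone against culture, IRI gave 5 rises and non-IRI gave 1, where 13.5% and 16% of all kept probes rose. Ahsg differed by -2.49 in non-IRI minus culture (limma adjusted p = 0.075). Of the 6 markers, 3 were kept through the liver arrays alone, so these counts are not read against those shares. Of the platelet markers Pf4 and Gp9, the summed signal was 31.5 to 39.96 in IRI, 22.8 to 43.8 in non-IRI and 0.0254 in vitro. Of the endothelial markers Kdr, Cdh5 and Cldn5 it was 10.1 to 15.1 in IRI, 16.0 to 43.0 in non-IRI and 1.62 in vitro, and Kdr alone was well above background in culture. Of the B cell markers Cd22 and Cd79b it was 2.34 to 5.22 in IRI, 1.00 to 3.52 in non-IRI and 0.0242 in vitro. These last 3 lists held a further 1, 2 and 1 markers on the array that were too dim to keep, so no count is read from them. The part of these cell types in the differences of integrin and ligand genes was not tested.

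**Figure D3:**
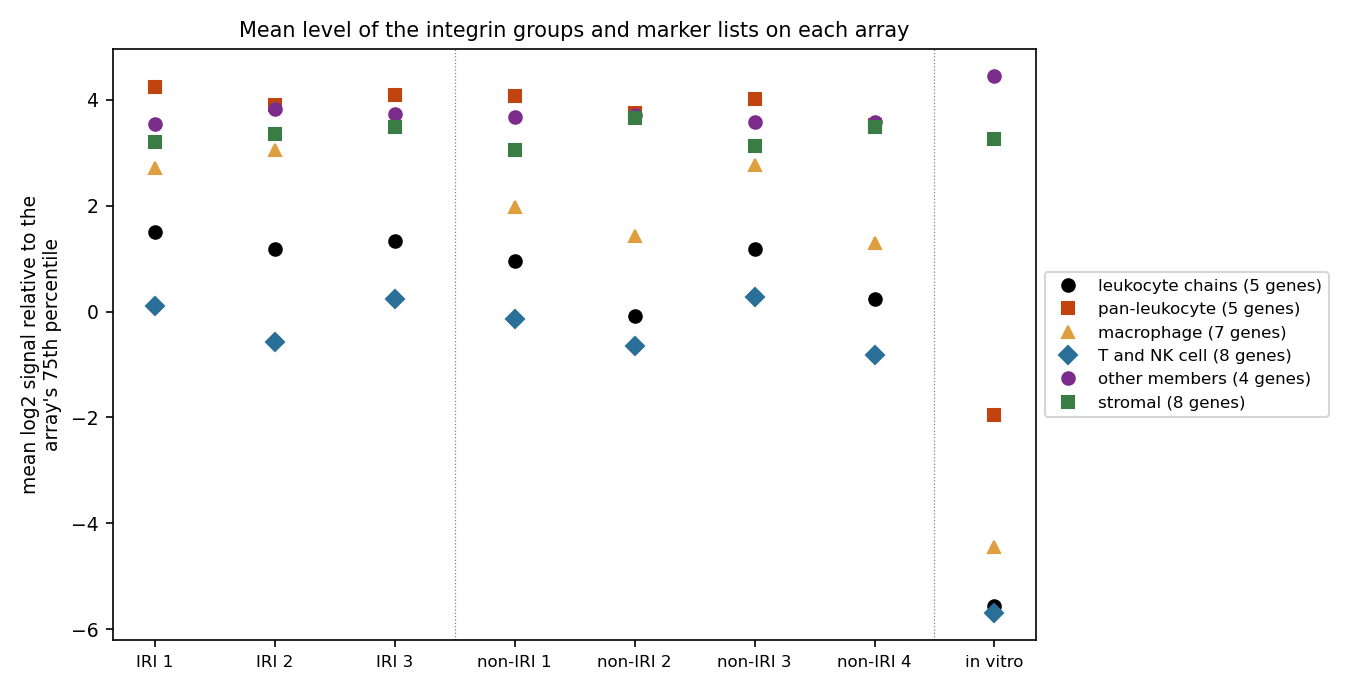
Mean log2 signal relative to the array's 75th percentile (y axis) on each of the 8 arrays (x axis: IRI, non-IRI, in vitro) for both integrin groups and 4 marker lists, each point being a mean over genes on 1 array. The leukocyte chains, pan-leukocyte, macrophage and T and NK cell points all fall on the culture array (-5.56, -1.96, -4.45 and -5.70), the stromal points stay near their liver range (3.26) and the other integrins are highest there (4.45); levels of different lists are not comparable.

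Most genes for proteins that activate integrins in blood cells were, like the leukocyte chains, higher on liver than in culture. Of 13 kept genes in the leukocyte activation list, 10 rose on liver against culture, none fell and 3 (Ptk2b, Rap1a and Rap1b) did not pass. Over all kept probes 15.3% rose. Of the 13, 7 were kept through the liver arrays alone, so the count is not read against that share. The median log2 difference was 2.81, or 2.66 with the dim genes at their bounds, against -0.25 over all kept probes. Fermt3, the blood-cell kindlin, averaged 4.62 in IRI, 4.61 in non-IRI and -3.79 in vitro, a difference of 8.41 (SE 0.32, limma adjusted p = 2.2e-06). Lcp2, an adaptor of immune receptor signalling, was at least 45.8-fold higher (limma adjusted p = 1.3e-06), and Pstpip1, a cytoskeletal adaptor of leukocytes, at least 112-fold (limma adjusted p = 3.4e-06). With normexp the log2 differences were 2.68 for Lcp2 and 4.03 for Pstpip1, each below its bound.

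Of 12 kept adaptors that serve integrins in most cells, 6 fell, none rose and 6 did not pass, where 17.7% of all kept probes fell. With replicate number as a block 4 fell, within the slide that holds the IRI and culture arrays 4 fell, and with normexp 0. The kinase Src fell by 1.82 on the log2 scale (SE 0.22, limma adjusted p = 0.00082), Parva, which links integrins to actin, by 1.83 and Lims2, a partner of integrin-linked kinase, by 1.59. Among 10 actin linkers, 7 fell and 3 did not pass, against the same share of all kept probes (17.7%). Actn4 fell by 2.24 (SE 0.34, limma adjusted p = 0.0023), the focal adhesion protein Vcl by 1.43 and the actin crosslinker Flna by 1.73. With replicate number as a block, 4 actin linkers fell and 1 rose, within that slide 3 fell, and with normexp 1. The median differences of the adaptors and the linkers were -0.74 and -1.42, against -0.25 over all kept probes. No kept gene of the leukocyte activation, adaptor and linker lists passed in IRI against non-IRI (limma). At an unadjusted p under 0.05 there was 1 in each list, of 13, 12 and 10 genes, where 15.1% of all kept probes were. Pstpip1 and Vasp were higher and Fermt2 lower in IRI.

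Of 9 ligands for leukocyte integrins on the array, 7 were kept. Of these, 3 rose on liver and none fell, where 15.3% of all kept probes rose. Icam2 and Cdh1 were kept through the liver arrays alone, so this count is not read against that share. Icam2, which binds the Itgal and Itgb2 receptor, was at least 32.0-fold higher than culture (limma adjusted p = 1.6e-05). Cdh1, an epithelial cadherin that lymphocytes bind through Itgb7, was at least 16.4-fold higher, and the junction protein F11r was higher by 1.92 (limma adjusted p = 0.026). With normexp the log2 differences were 2.37 for Icam2 and 1.86 for Cdh1 (limma adjusted p = 0.012 and 0.052), each below its bound. There F11r did not pass either (limma adjusted p = 0.402). Icam1, the main ligand of the beta 2 receptors, differed by -0.28 (SE 0.44) and did not pass. Jam3, a junction protein that binds the Itgam receptor, differed by -1.01 (limma adjusted p = 0.072) and was the 1 lower gene of this list at an unadjusted p under 0.05; 1 gene of the list fell with array weights, with the replicate block and without non-IRI 2. Of 15 kept matrix ligands, 2 rose and 5 fell, where 15.3% of all kept probes rose and 17.7% fell. The matricellular genes Thbs1, Ccn2 and Ccn1 fell by 2.83, 2.73 and 1.32 on the log2 scale (limma adjusted p = 0.0048, 0.001 and 0.0085). Fn1, the ligand of the Itga5 receptor, and Col1a1 differed by -0.19 (SE 0.32) and -0.02 (SE 0.26).

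One ligand passed between injured and uninjured liver in the main limma fit. Vtn, the hepatocyte-made ligand of Itgav receptors, measured -1.11, -0.09 and -1.67 in IRI, and -6.06, -3.67, -4.02 and -3.59 in non-IRI, a log2 difference of 3.38 (limma adjusted p = 0.035). The value of non-IRI 1 lay below the lowest signal that counted as well above background on that array (-4.48). Without non-IRI 1 the Vtn difference was 2.81. The adjusted p of Vtn was 0.0596 with replicate number as a block, and 0.0612 to 0.132 in the fits that left out any 1 array except non-IRI 1. With normexp the difference was 0.67 (adjusted p = 0.733), and with the added normexp setting 1.21 (adjusted p = 0.021). Hepatocyte markers were also higher in IRI, with a summed relative signal of 17.2 to 24.0 in IRI, 0.957 to 5.56 in non-IRI and 0.518 in vitro. Of these 6 markers, 5 (Alb, Apoa1, Ahsg, Fga and Serpina1) rose (limma), where 2.82% of all kept probes were called in either direction. That count was 2, 1 and 0 without IRI 1, IRI 2 and IRI 3, 1 and 2 without non-IRI 2 and non-IRI 4, 3 with the block, 0 with normexp and 6 with the added normexp setting. The part of hepatocyte RNA in the Vtn difference was not tested. At an unadjusted p under 0.05, 2 further matrix ligands, Ccn1 and Ccn2, were lower in IRI, and 0 leukocyte-side ligands differed. Over all kept probes 15.1% reached that level in either direction. One matrix ligand fell in IRI with median scaling, with the authors' log2 table, with a trended prior and with array weights. One also fell with the added normexp setting and among probes well above background on all 8 arrays.

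**Figure D4:**
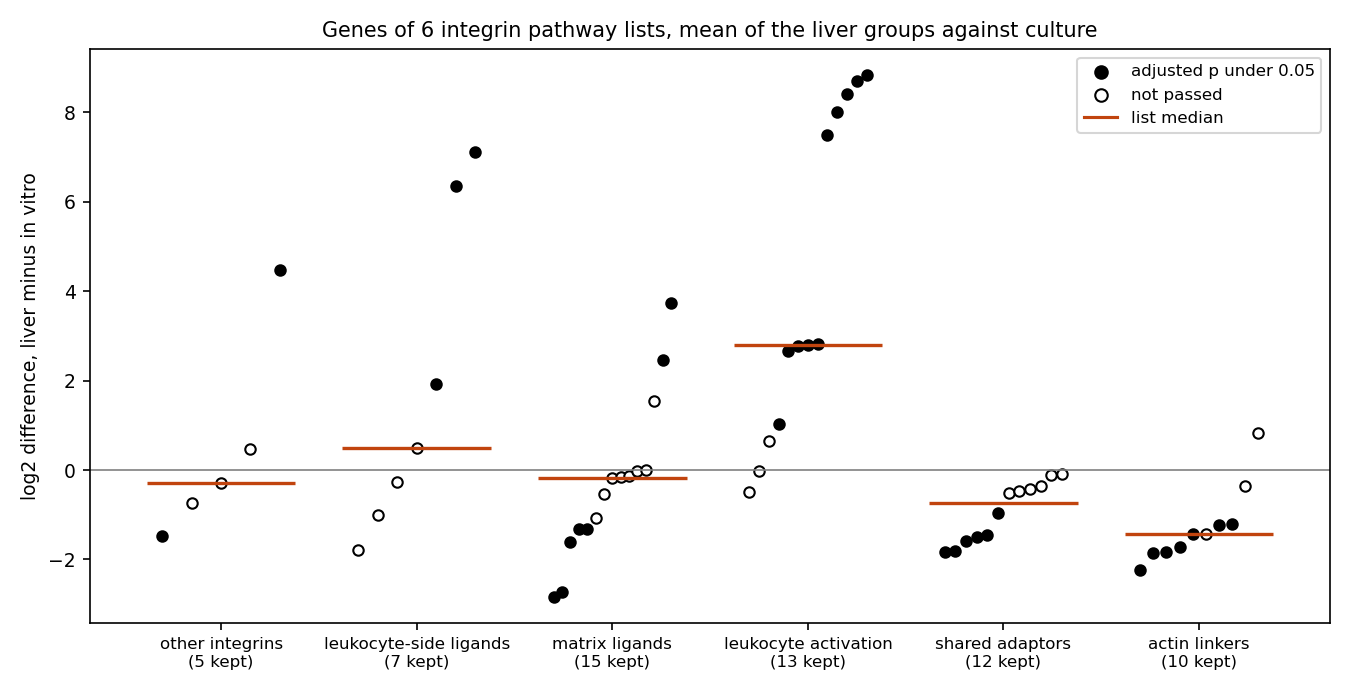
Log2 difference of the mean of IRI and non-IRI minus in vitro (y axis) for each kept gene of 6 integrin pathway lists (x axis), filled where the limma adjusted p was under 0.05, with the list median as a line. The leukocyte activation genes reach up to 8.83 with a median of 2.81, while the shared adaptors and the actin linkers have medians of -0.74 and -1.42.

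Of 16 further integrin chains, 8 had a probe and 5 were kept. Itgad, a partner of Itgb2 on macrophages, rose on liver at least 10.2-fold (limma adjusted p = 4.5e-05; with normexp a log2 difference of 1.12, adjusted p = 0.308), with means of -1.08 in IRI, -1.12 in non-IRI and -5.56 in vitro (not well above background). Itga8, a partner of Itgb1, fell by 1.47 (SE 0.25, limma adjusted p = 0.004), with means of -3.30, -3.23 and -1.79 in the same groups. Itgb4, Itga7 and Itgb6 did not pass, with differences of 0.47, -0.30 and -0.74. None of the 5 passed in IRI against non-IRI (limma), with 0 at an unadjusted p under 0.05.

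The genes whose profiles lay nearest to that of Itgb2 over the 8 arrays were Tnfaip8l2, Kcnk13, Nrros, Tbxas1 and Clec4a1. The root mean square difference of their centred log2 values from Itgb2 was 0.14, 0.17, 0.18, 0.19 and 0.23, against a median of 3.61 over 9566 genes. These distances were picked as the smallest, so the median gives only the scale. All 5 genes were well above background on the 7 liver arrays and, like Itgb2, not in culture. Their likeness thus includes a shared dim signal on the culture array. The nearest to Itgb1 (probe A_44_P507943) were Pitpnb, Zmpste24, Med29, Idh3a and Uhmk1, at 0.070, 0.072, 0.079, 0.085 and 0.093, against a median of 0.51. These 5 were well above background on all 8 arrays and, like Itgb1, highest in culture; Idh3a, for example, averaged 0.43 in IRI, 0.59 in non-IRI and 1.84 in vitro.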

How the data were processed

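Each sample was hybridised to 1 single-colour (Cy3) Agilent Whole Rat Genome array from 0.5 µg RNA, per the labels. The deposited scanner files hold spot intensity, background-subtracted and detrended by Feature Extraction 11.0.1.1 per the file headers (9.1 per the submitters' processing notes). The deposited log2 table, which correlated with the centred scanner values at 0.9997 or more, was the authors' scaling to the 75th percentile with each probe centred on its median; it served as an alternative.

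Values are log2 processed signals minus the 75th percentile of 43379 non-control spots, without outlier spots. Probes well above background on at least 3 of 7 liver arrays or in culture were kept (24821). Symbols came from RefSeq accessions (17541 of 41012 probes); the files' genome build is not given in the sources used here. limma 3.58.1 in R 4.3.3 fitted 3 group means on 8 arrays, tested first on simulated data, with Benjamini-Hochberg adjustment over all kept probes and a threshold of 0.05. Comparisons with culture share its 1 array. List genes used their brightest kept probe.

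Deviations of same-numbered IRI and non-IRI arrays correlated at 0.19, 0.16 and 0.10 across probes, so the numbers were treated as blocks in an alternative fit. For IRI and non-IRI arrays the numbers also match array position on the slides. The culture array, at position 4, carries number 1, so that fit grouped it with IRI 1 and non-IRI 1. Its comparisons with culture rest on this grouping by number. Non-IRI 4 stood alone in its block and did not enter the differences of that fit. Named genes were every member probe, per pathway list those passing in IRI against non-IRI and the 3 with the smallest p in liver against culture, and the 5 nearest profiles to Itgb2 and Itgb1; Icam1, Fn1, Col1a1, Itga7, Itgb6, Vasp, Fermt2, Ptk2b, Rap1a, Rap1b, Jam3 and Vcam1 were named after their values were seen. Members and lists were chosen with earlier results of these data known.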

Additional observations from a re-analysis of the deposited data

Results flagged for a closer look

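Vcam1, the endothelial ligand of the Itga4 receptors, had 1 array far from the rest of its group. Its probe measured 5.10, 3.88 and 5.25 in IRI, -6.64, 5.14, 4.27 and 5.03 in non-IRI, and 5.13 in vitro on the log2 scale relative to the 75th percentile. The value of -6.64 belongs to non-IRI 1 and was marked by Dixon's test, which marks about 1 in 20 groups by chance. It was 1 of 32 probes tested in this way, and the fitted difference of IRI minus non-IRI for Vcam1 (2.79, SE 2.73, limma adjusted p = 0.69) includes that spot.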

How the results depend on the processing

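The rise of the leukocyte chains was called for 5 of 5 probes in each of the 7 fits that left out 1 array, and 2 to 3 of the other 7 probes then passed; 0 of 12 passed in IRI against non-IRI (range 0 to 0). Normexp background correction, run on median signals, called 3 leukocyte probes (not Itgal or Itga4) and 0 others, and its fit held 17 spots of bright local background, up to 67346.5 units; with these set to the median, an alternative added after seeing the data, Itga4 missed the threshold (adjusted p = 0.0552) and the Itgb2 difference was 5.73. Of the pathway lists, plain normexp called 5 leukocyte activation genes (7 in the added setting), 1 leukocyte-side ligand (2), 2 matrix ligands (7), 0 further integrins (2), 0 shared adaptors (5) and 1 actin linker (7). Keeping only probes well above background on all 8 arrays left 1 leukocyte probe to call, Itgb7. With 1 probe per gene, 1 other gene was called, Itgb1. Array weights called 1 probe in IRI against non-IRI, Itgal. Itga1 passed against culture with a trended prior (adjusted p = 0.0450) and with array weights (0.0490). Slide 1 alone, also added later, called the same 5 and 2 probes. The slide as a block left liver against culture and IRI against non-IRI not estimable and cannot alter IRI against in vitro.

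Differences that changed sign were small and uncalled. In IRI minus non-IRI, normexp gave 0.42 for Itgb1 A_44_P507943, 0.10 for Itga1, 0.18 for Itga5 A_42_P783301 and -0.32 for Itga5 A_44_P164309, whose non-IRI minus in vitro difference was 0.089. Array weights gave 0.044 for that Itgb1 probe and 0.065 for Itga5 A_42_P783301, and the added normexp setting 0.031 for Itgb1. Quantile normalization gave 0.085 for Itgb5 in IRI minus in vitro and 0.011 for Itga5 A_42_P783301 in non-IRI minus in vitro. Leaving out arrays gave -0.13 to 0.054 for Itgb1 A_44_P507943 and, for Itga5 A_42_P783301, -0.32 to 0.21 in IRI minus non-IRI, -0.23 to 0.034 in liver minus in vitro and -0.39 to 0.14 in IRI minus in vitro. The causes were not tested.

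The replicate block called 5 leukocyte, 2 other and 0 injury probes and changed 1 member call, that of Itgb1 A_44_P273697 in IRI against in vitro (adjusted p = 0.0651), beside Vtn and, in liver against culture, these list counts: 4 actin linkers fell and 1 rose (7 and 0 without it), 4 shared adaptors fell (6), 9 leukocyte activation genes rose (10), 1 leukocyte-side ligand fell (0) and 1 matrix ligand rose (2). Of the marker lists, 7 macrophage (6), 4 hepatocyte (5), 2 endothelial (1), 1 platelet (2) and 0 stromal (1) genes rose. In IRI against non-IRI, 3 hepatocyte genes rose (5). Over all kept probes, IRI against non-IRI had 700 calls, 280 with the block, 2572 with array weights, 0 with normexp and 305 to 751 without 1 array; liver against culture had 8185, and 754 with normexp. Precision is limited by the number of arrays, above all by the single culture array, and 4 leukocyte chains have only a bound there.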
